A study of Mus musculus with 8 samples.

Results

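The genes described here are 37 markers of the first lineages of the mouse embryo, taken from a list of names that was drawn up with earlier results of these data known, though no measured value enters the rule. They fall into 5 groups: primitive streak and mesoderm (5 genes), endoderm (8), neural (5), neural crest (12) and trophectoderm (7). Each was found by its Ensembl identifier among the 55385 genes of the count table. Of the 37 genes, 30 reached 10 or more counts in 3 or more of the 8 libraries and were measurable by that rule, and the same number passed the expression filter and were tested.

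The cells were R1 mESCs, a line of male mouse embryonic stem cells with a WT genotype, grown without feeder cells in N2B27 medium with 2i and Lif on a Poly-L-Ornithine and Laminin coating. All cultures received a lentivirus for 2 days and puromycin for the next 3 days, so that the controls carried a hairpin and the drug too. In all, 3 groups of biological replicates were sequenced: Eftud2 shRNA1 (3 libraries), Eftud2 shRNA2 (3 libraries) and nt-shRNA, a hairpin without a target (2 libraries). Both Eftud2 hairpins aim at the same transcript at different places, and Eftud2 encodes a GTPase of the U5 snRNP of the spliceosome. Infected cells were collected as a population and not as clones. Loss of Eftud2 was a transient knockdown over days in cells kept in 2i and Lif. No differentiation into the lineages named here was induced, and whether some cells differentiated was not tested.

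In the embryo, the trophectoderm and the primitive endoderm separate from the pluripotent epiblast before implantation. The epiblast then forms the primitive streak, from which mesoderm and definitive endoderm arise, while the remaining ectoderm gives rise to neural tissue and, at its border, to the neural crest, which later leaves the epithelium and migrates. mESCs in 2i and Lif correspond to the epiblast before implantation, where most master regulators of these lineages are silent or low, but some genes used as lineage markers, such as Tfap2c, Krt8, Krt18 and Foxd3, are normally expressed. The comparison asked which of these genes changed in cells kept in 2i and Lif when Eftud2 was reduced.

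The libraries held 19569525 to 29871048 counts each. Levels are given as CPM, the usual count relative to library size, with the TMM factors of edgeR, and a floor of 3 counts lay at 0.105 CPM in the deepest library and 0.148 CPM in the shallowest by this scale. The labelled cell type was checked by its markers. All 12 pluripotency markers were tested, and their summed level lay between 7286 and 7469 CPM with nt-shRNA, between 7278 and 7524 CPM with shRNA1 and between 7467 and 7688 CPM with shRNA2. Single markers moved within this sum: 5 were called higher and 3 lower with shRNA1, and 7 higher and 4 lower with shRNA2, from a log2 fold change of -0.96 (Dppa5a) to 1.32 (Klf4). The 10 fibroblast markers summed to 8.36 and 8.92 CPM with nt-shRNA, 11.0 to 13.8 CPM with shRNA1 and 9.52 to 11.9 CPM with shRNA2. Of these, 4 were tested, all with estimates above 0 with shRNA1, and 3 above and 1 below 0 with shRNA2. Col1a2 was called higher with both hairpins (1.27, adjusted p = 0.0103 and 1.66, adjusted p = 4.29e-04). Between the hairpins, 1 of the 4 was called lower with shRNA2. Col3a1, Postn, Lum and Dcn were at or below 0.0918 CPM in every library. Of 5 blood cell markers, Ptprc and Hbb-bs had no count in any library, and Cd68 made up nearly all of their sum, which was 26.3 and 28.4 CPM with nt-shRNA, 10.6 to 12.7 CPM with shRNA1 and 8.49 to 9.79 CPM with shRNA2. The part of these markers in the results below was not tested. The targeted transcript was at 262 and 256 CPM with nt-shRNA, at 232, 229 and 225 CPM with shRNA1 and at 198, 202 and 235 CPM with shRNA2. Eftud2 was thus lower in every shRNA library than in either control, by a log2 fold change of -0.18 with shRNA1 (SE 0.07, adjusted p = 0.0514, not called) and -0.29 with shRNA2 (SE 0.07, adjusted p = 0.00122). Its shRNA1 call was gained in 5 of 16 other settings, namely without shRNA2 replicate 2 or 3 (adjusted p = 0.0415 and 0.0215), without a filter (0.0300), with only the groups compared (0.0491) and with the replicate block (0.0206). A difference between the hairpins (adjusted p = 0.164) was called without shRNA2 replicate 3 (adjusted p = 0.0127). By qPCR, another measure, the authors reported a larger loss of the Eftud2 transcript with both hairpins, and by western blot less EFTUD2 protein.

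Each difference was tested with edgeR's quasi-likelihood test across 17445 genes, and a gene was called when its Benjamini-Hochberg adjusted p was under 0.05. Exact permutation of 3 against 2 libraries gives no one-sided p below 0.1, so the calls draw on a spread estimated across genes. Both hairpins were compared with the same 2 nt-shRNA libraries, and their results are therefore given side by side without a measure of likeness. In bulk RNA, fewer cells of a type and less RNA per cell cannot be told apart.

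The share of lineage genes called lay below, near and above that of all genes in the 3 comparisons, and these differences between shares were not tested. With shRNA1, 6 of the 30 tested members were called (20%), against 30.9% of all genes tested. Among them 2 were higher, against 13.8% of all genes, and 4 were lower, against 17.1%. With shRNA2, 16 of 30 were called (53.3%), against 55.9% of all genes, with 8 higher (27.2% of all genes) and 8 lower (28.7%). Between the hairpins, 13 of 30 differed (43.3%), against 35.6% of all genes, with 5 higher with shRNA2 (16.9% of all genes) and 8 lower (18.7%). What follows therefore describes which members moved and by how much, and reads nothing from the number of calls. The median log2 fold change of the tested members was -0.01 with shRNA1, -0.07 with shRNA2 and -0.13 between them, beside -0.01, 0.00 and 0.00 over all genes. The members called with groups that did not overlap were 6 with shRNA1 (20% of those tested, beside 30.6% of all genes), 14 with shRNA2 (46.7% beside 55.5%) and 13 between the hairpins (43.3% beside 33.9%), so that nearly all called genes, members or not, had separate groups. The count of 2 higher with shRNA1 became 1 without nt-shRNA replicate 2, and that of 4 lower became 2 without shRNA1 replicate 1, shRNA1 replicate 2 or either nt-shRNA library. The count of 8 higher with shRNA2 became 5 without nt-shRNA replicate 2, and that of 8 lower between the hairpins became 5 without shRNA1 replicate 3.

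**Figure D1:**
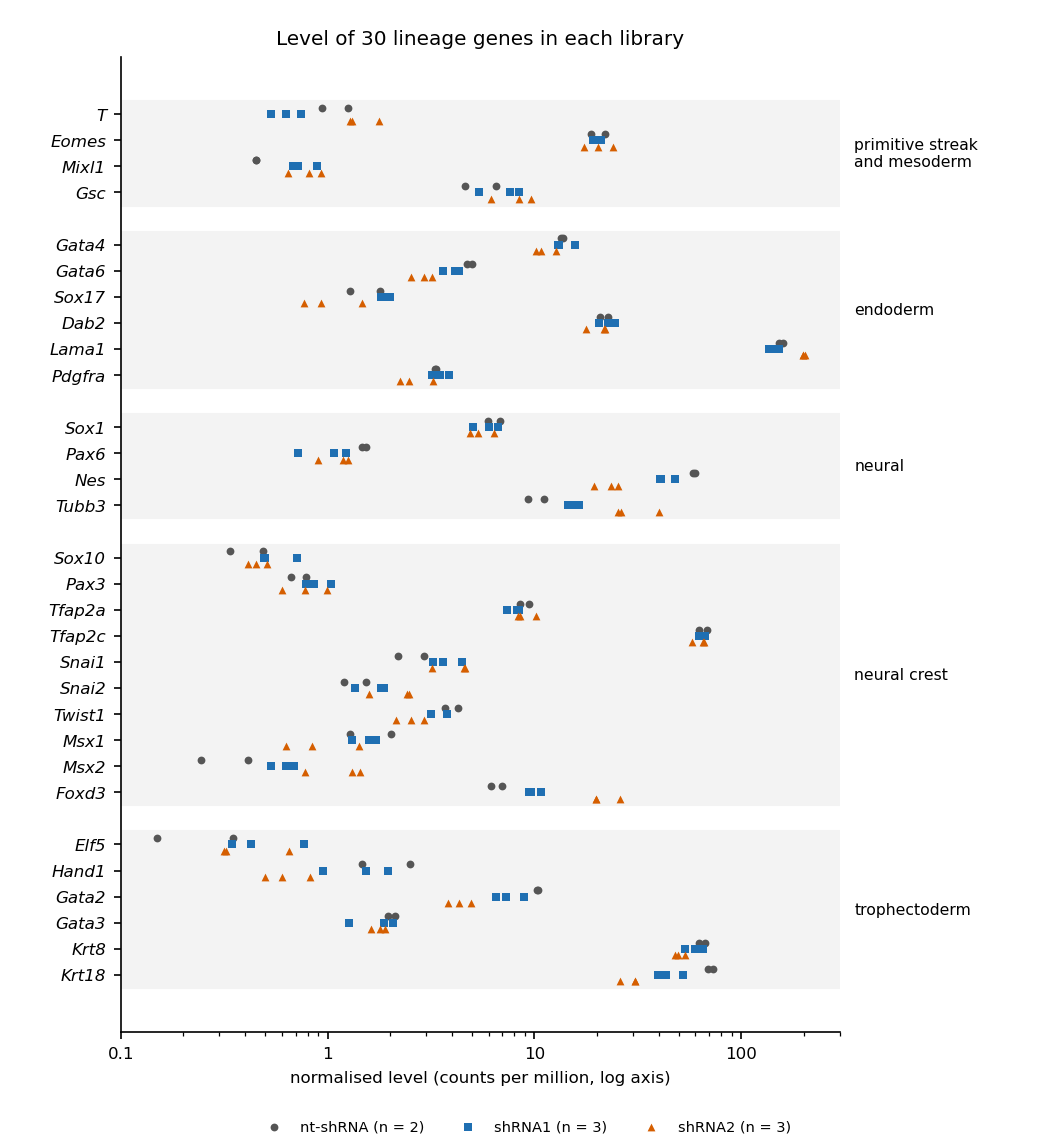
Level of the 30 tested lineage genes in each library, in CPM on a log axis, with 1 point per library (nt-shRNA, n = 2, shRNA1, n = 3, and shRNA2, n = 3). Levels run from 0.150 CPM for Elf5 in nt-shRNA replicate 1 to 203 CPM for Lama1 in shRNA2 replicate 3. The shRNA2 points stand apart from the controls for 14 of the members called with shRNA2, among them Nes, Tubb3, Foxd3, Gata2 and Krt18.

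The members differed more in their level than in their response. Per kilobase of exon, the highest with nt-shRNA were Krt18 at 49.4 ± 1.99 CPM per kb (SD, n = 2), Krt8 at 32.9 ± 1.71, Tfap2c at 17.8 ± 1.14 and Lama1 at 16.1 ± 0.529. These were an epithelial keratin pair, an AP-2 factor and a laminin chain. Nes followed at 9.18 ± 0.130 and Tubb3 at 5.47 ± 0.666, and Eomes (4.88 ± 0.534) and Gsc (4.37 ± 1.05) did not differ beyond their spread, nor did Gata2 (1.91 ± 0.0241) and Tfap2a (1.83 ± 0.129). The remaining tested members lay between 0.0424 CPM per kb (Elf5) and 3.48 CPM per kb (Gata4). With shRNA2 the order of the 30 changed: Krt8 was at place 1 and Krt18 at place 3, Tubb3 went from place 6 to 5, Foxd3 from 11 to 6 and Msx2 from 29 to 21, and Nes went from place 5 to 9, Gata2 from 13 to 17 and Hand1 from 17 to 23. With shRNA2, Krt18 (20.2 ± 1.97) and Lama1 (20.7 ± 0.292) did not differ beyond their spread, nor did Tubb3 (16.3 ± 4.37) and Tfap2c (17.1 ± 1.18). These places are given as a description.

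The other 7 members were not measurable, and each has a regulator's role in its lineage. Neurog2, a proneural bHLH factor, had 0 to 2 counts per library, and Mesp1, a bHLH factor of early mesoderm, and Foxa2, a forkhead factor of definitive endoderm, had 1 to 5 counts each. Pax7, a paired-box factor of the neural crest, had 4 to 9 counts, and Sox9, an HMG-box factor of neural crest and cartilage, had 5 to 11. Cdx2, the caudal homeobox factor of the trophectoderm, also had 5 to 11 counts, and Sox7, an HMG-box factor of primitive endoderm, 3 to 15. These 7 genes were not tested. Sox7 had 3 counts in each nt-shRNA library, which is the floor, and 6 to 15 counts in the shRNA libraries, without overlap. This is 0.112 and 0.105 CPM against 0.275 to 0.676 CPM. Foxa2 also had separate groups by CPM (0.0375 and 0.0348 against 0.0451 to 0.225), but on 1 count in each nt-shRNA library.

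**Figure D2:**
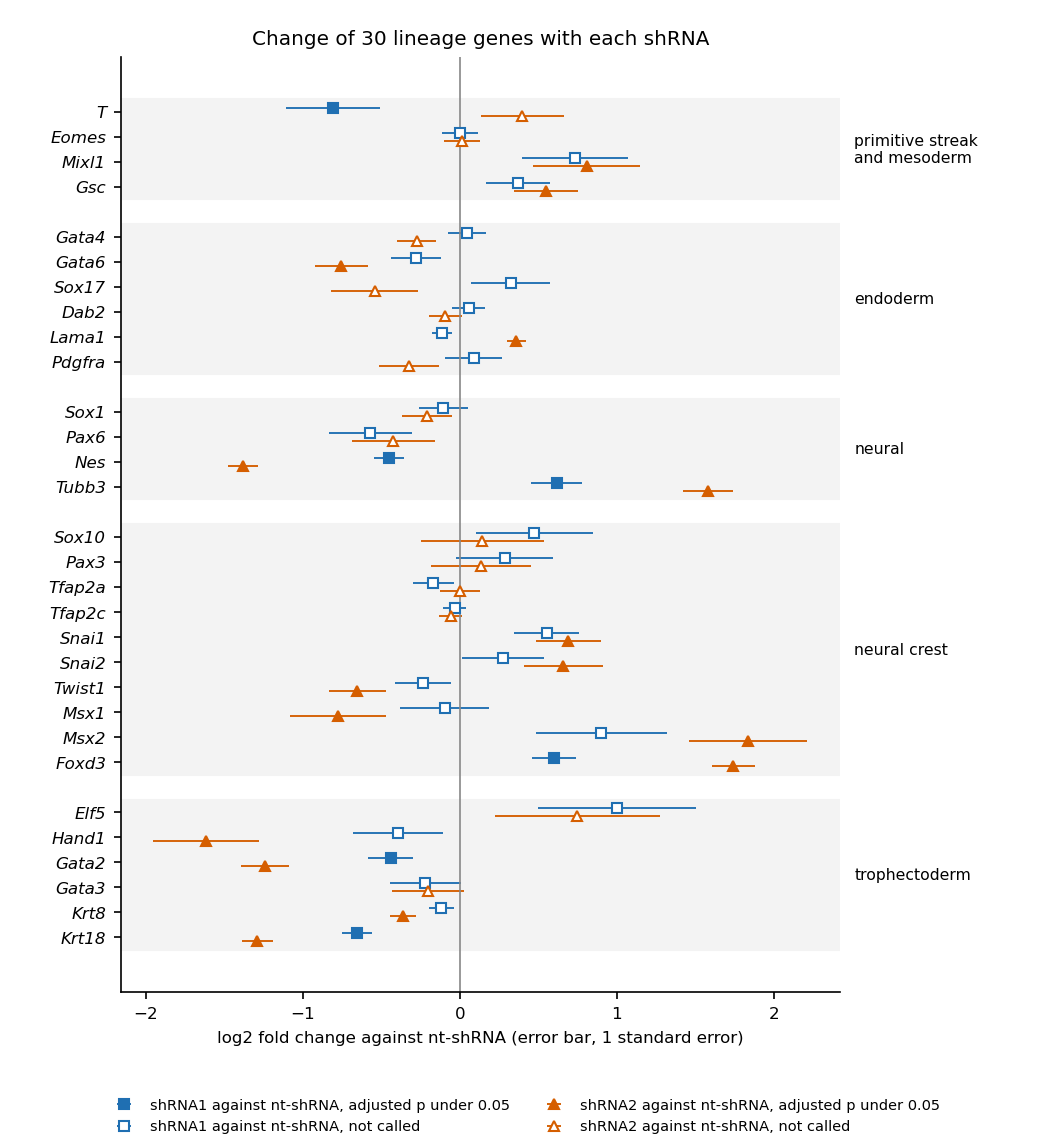
Log2 fold change against nt-shRNA of the 30 tested members with shRNA1 (squares) and shRNA2 (triangles), with 1 standard error. Filled symbols have an adjusted p under 0.05. With shRNA2 they run from -1.62 (Hand1) to 1.84 (Msx2).

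A set of 5 of the 30 tested members was called in the same direction in all 3 comparisons, as were 12.1% of all genes tested. Nes, Krt18 and Gata2 were lower, and Tubb3 and Foxd3 were higher. The 3 comparisons share libraries, and nothing is read from their number. In each, the shRNA1 libraries lay between the other groups.

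Nes encodes nestin, an intermediate filament protein of neural progenitors. Its level was 58.3 and 59.5 CPM with nt-shRNA, 40.4, 40.9 and 47.8 CPM with shRNA1 and 23.3, 19.3 and 25.3 CPM with shRNA2. The 3 groups did not overlap, and every shRNA2 library was below every shRNA1 library. Nes was 1.37-fold lower with shRNA1 (log2 fold change -0.45, SE 0.09, adjusted p = 0.00114) and 2.60-fold lower with shRNA2 (-1.38, SE 0.10, adjusted p = 1.36e-09). Between the hairpins it was 1.90-fold lower with shRNA2 (adjusted p = 1.21e-06).

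Krt18 encodes the type I keratin that pairs with keratin 8 in simple epithelia such as the trophectoderm. It was at 69.0 and 73.0 CPM with nt-shRNA, at 39.6, 43.1 and 52.3 CPM with shRNA1 and at 30.7, 25.8 and 30.7 CPM with shRNA2. Again no library of one group reached the range of another. The transcript was 1.57-fold lower with shRNA1 (-0.65, SE 0.10, adjusted p = 5.04e-05), 2.44-fold lower with shRNA2 (-1.29, SE 0.10, adjusted p = 3.79e-09) and 1.55-fold lower with shRNA2 than with shRNA1 (adjusted p = 5.01e-05).

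Gata2, a zinc finger factor of trophoblast and of blood stem cells, was at 10.2 and 10.4 CPM with nt-shRNA. It was at 6.49, 7.26 and 8.95 CPM with shRNA1 and at 4.32, 3.83 and 4.96 CPM with shRNA2, without overlap between any of the groups. The fold change was -0.44 on the log2 scale with shRNA1 (SE 0.14, adjusted p = 0.0262), -1.24 with shRNA2 (SE 0.15, adjusted p = 1.50e-06) and -0.80 between the hairpins (SE 0.15, adjusted p = 3.78e-04). The shRNA1 call was lost without shRNA1 replicate 1 or 2 (adjusted p = 0.120 and 0.0869) and without nt-shRNA replicate 1 or 2 (0.101 and 0.113), and with library sizes alone as the scaling (0.0944).

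Tubb3 encodes the class III beta tubulin of neurons. Its level was 11.1 and 9.34 CPM with nt-shRNA, 15.9, 14.5 and 16.5 CPM with shRNA1 and 26.2, 39.9 and 25.4 CPM with shRNA2. The shRNA2 libraries spread most, with replicate 2 well above the others, and all 3 lay above every shRNA1 library. Tubb3 was 1.53-fold higher with shRNA1 (log2 fold change 0.62, SE 0.16, adjusted p = 0.00710) and 2.99-fold higher with shRNA2 (1.58, SE 0.16, adjusted p = 1.16e-07). The hairpins differed 1.95-fold (adjusted p = 3.31e-05). Without nt-shRNA replicate 2, the lower of the controls, the shRNA1 call was lost (0.50, adjusted p = 0.0919).

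Foxd3 encodes a forkhead repressor that marks premigratory neural crest and is also needed in pluripotent cells. It was at 6.93 and 6.17 CPM with nt-shRNA, at 9.38, 10.8 and 9.63 CPM with shRNA1 and at 19.9, 25.9 and 19.9 CPM with shRNA2. No groups overlapped. Foxd3 was 1.52-fold higher with shRNA1 (0.60, SE 0.14, adjusted p = 0.00322), 3.35-fold higher with shRNA2 (1.74, SE 0.14, adjusted p = 4.69e-09) and 2.21-fold higher with shRNA2 than with shRNA1 (adjusted p = 1.59e-06).

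**Figure D3:**
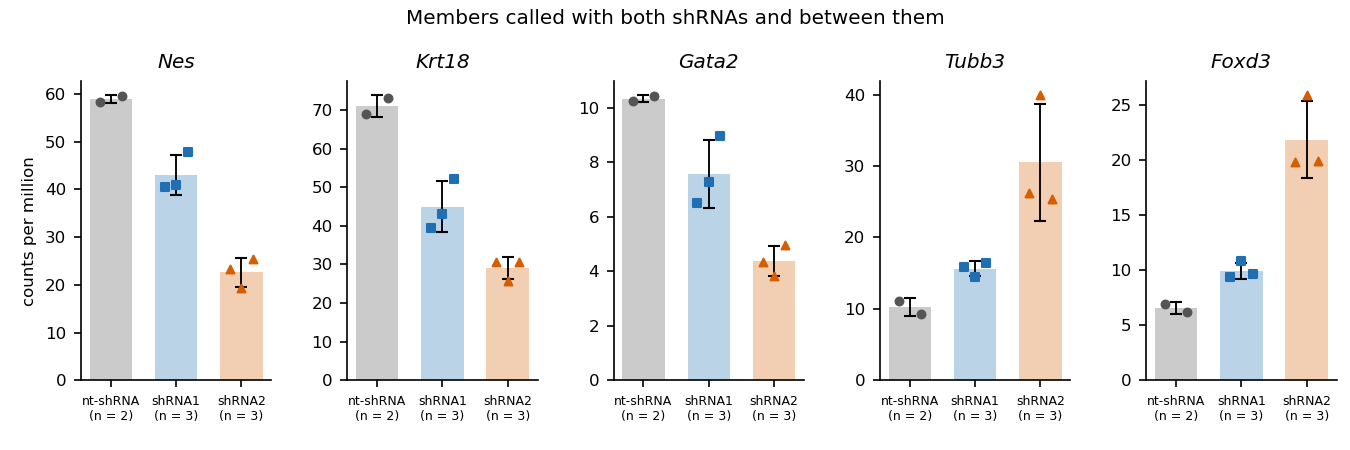
Level of Nes, Krt18, Gata2, Tubb3 and Foxd3 in CPM, with 1 point per library, the mean as a bar and the SD as an error bar. In each panel the shRNA1 libraries lie between the nt-shRNA and the shRNA2 libraries.

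The promoters of these 5 genes are shown because 3 of them fell and 2 rose with both hairpins. The sequences are those of RefSeq on GRCm38.p6, from 250 bases before to 50 bases after an annotated start, on the plus strand, which is the coding strand of all 5: chr3:87970843-87971142 for Nes, chr15:102027966-102028265 for Krt18, chr6:88193641-88193940 for Gata2 (the more upstream of 2 listed starts), chr8:123411303-123411602 for Tubb3 and chr4:99656049-99656348 for Foxd3. Capitals mark matches, on either strand, to the letters of a GC box (GGGCGG). They also mark those of a TATA box, which were searched as TATAAA. The letters of the box named CCAAT were searched as such, and the E-box was searched in its palindromic form CACGTG. No match overlaps another.
Nes: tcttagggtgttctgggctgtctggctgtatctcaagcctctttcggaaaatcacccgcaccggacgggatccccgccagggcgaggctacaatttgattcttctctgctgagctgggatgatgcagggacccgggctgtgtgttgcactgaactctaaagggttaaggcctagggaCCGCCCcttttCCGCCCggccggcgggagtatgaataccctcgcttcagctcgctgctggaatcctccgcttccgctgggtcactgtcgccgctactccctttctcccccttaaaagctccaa
Krt18: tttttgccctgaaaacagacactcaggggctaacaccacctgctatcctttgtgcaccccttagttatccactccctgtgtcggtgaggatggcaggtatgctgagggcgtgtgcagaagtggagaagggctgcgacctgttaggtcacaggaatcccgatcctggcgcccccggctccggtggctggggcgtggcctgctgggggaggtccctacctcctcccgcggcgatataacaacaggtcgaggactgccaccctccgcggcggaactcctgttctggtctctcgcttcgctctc
Gata2: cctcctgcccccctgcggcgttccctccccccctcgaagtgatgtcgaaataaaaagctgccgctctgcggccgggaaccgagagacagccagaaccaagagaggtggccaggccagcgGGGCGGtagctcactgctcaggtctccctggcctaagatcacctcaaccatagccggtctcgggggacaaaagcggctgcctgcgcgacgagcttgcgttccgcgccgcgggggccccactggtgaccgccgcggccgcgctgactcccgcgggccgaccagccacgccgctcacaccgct
Tubb3: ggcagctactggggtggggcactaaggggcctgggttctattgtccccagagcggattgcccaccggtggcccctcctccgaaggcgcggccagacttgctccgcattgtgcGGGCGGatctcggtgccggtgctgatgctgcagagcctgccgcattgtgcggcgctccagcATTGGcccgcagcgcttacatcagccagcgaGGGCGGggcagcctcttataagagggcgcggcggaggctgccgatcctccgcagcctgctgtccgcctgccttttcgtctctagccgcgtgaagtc
Foxd3: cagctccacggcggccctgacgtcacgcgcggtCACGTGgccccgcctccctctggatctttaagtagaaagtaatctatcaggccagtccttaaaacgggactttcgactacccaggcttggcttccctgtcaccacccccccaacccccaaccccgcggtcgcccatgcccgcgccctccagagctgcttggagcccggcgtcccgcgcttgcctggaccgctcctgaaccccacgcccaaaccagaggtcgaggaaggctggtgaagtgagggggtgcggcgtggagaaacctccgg

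In the windows shown, the 3 lower genes had GC boxes in Nes (2) and Gata2 (1) and none in Krt18. Of the 2 higher genes, Tubb3 had 2 GC boxes and a CCAAT box while Foxd3 had an E-box alone. The other listed start of Gata2, not shown, had 3 GC boxes and 2 CCAAT boxes. No motif was shared by all the genes that moved the same way. RefSeq promoters were found for 25 of the 37 members, with 32 starts. A GC box was in 18 of these windows (56.2%) against 35.7% of 32841 promoters of the same length, a CCAAT box in 13 (40.6% against 37.4%), a TATA box in 4 (12.5% against 13.6%) and an E-box in 1, that of Foxd3 (3.12% against 7.15%). The member windows held a median of 17.5 CpG dinucleotides, from 2 (Dab2) to 37 (Sox1), beside a median of 7 over all promoters. These matches are a description of the windows and not of binding.

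Among the primitive streak and mesoderm genes, T differed between the hairpins, and Mixl1 and Gsc were higher with shRNA2. The summed level of the 5 genes was 26.7 and 28.3 CPM with nt-shRNA, 27.8 to 30.4 CPM with shRNA1 and 29.1 to 32.3 CPM with shRNA2. Most of this sum was Eomes, with means of 20.3, 20.4 and 20.5 CPM in the same order. With shRNA1, 1 of 4 tested members was called (lower, as were 17.1% of all genes), and with shRNA2 2 were (both higher, as were 27.2%). T, the T-box factor Brachyury of streak and notochord, was at 0.937 and 1.25 CPM with nt-shRNA, at 0.631, 0.740 and 0.535 CPM with shRNA1 and at 1.77, 1.31 and 1.29 CPM with shRNA2. The shRNA1 libraries were all below the controls and the shRNA2 libraries all above them, on 14 to 38 counts per library. The difference between the hairpins was 2.31-fold (log2 fold change 1.21, SE 0.27, adjusted p = 0.00204). Against nt-shRNA, the lower level with shRNA1 was called narrowly (-0.81, SE 0.30, adjusted p = 0.0483), and the value with shRNA2 was not called (0.40, SE 0.27, adjusted p = 0.210). The shRNA1 call was lost without any of the 3 shRNA1 libraries, shRNA2 replicate 1 or either nt-shRNA library (adjusted p between 0.0543 and 0.330) and in 5 other settings, DESeq2 among them (0.159).

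Mixl1 and Gsc encode homeobox factors of the streak and the organiser. Mixl1 was at 0.450 and 0.453 CPM with nt-shRNA, at 0.722, 0.888 and 0.677 CPM with shRNA1 and at 0.930, 0.812 and 0.643 CPM with shRNA2. All shRNA libraries lay above both controls, but on only 12 to 20 counts each. The change was called for shRNA2 at the edge of the threshold (0.81, SE 0.34, adjusted p = 0.0498) and not for shRNA1 (0.73, SE 0.34, adjusted p = 0.109). It was lost without any single library except shRNA2 replicate 3 (adjusted p between 0.0502 and 0.160) and with DESeq2 (0.176). Gsc was at 6.49 and 4.60 CPM with nt-shRNA, at 5.37, 7.60 and 8.38 CPM with shRNA1 and at 8.46, 6.18 and 9.64 CPM with shRNA2. The groups overlapped, since shRNA2 replicate 2 was below nt-shRNA replicate 1. Its shRNA2 call (0.55, SE 0.20, adjusted p = 0.0266) was lost without shRNA2 replicate 1 (0.0667), shRNA2 replicate 3 (0.103) or nt-shRNA replicate 2 (0.294). Eomes, the T-box factor shared by streak and trophoblast, was well expressed, at 17.3 to 23.9 CPM over the 8 libraries, and was called in no comparison.

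In the endoderm group, Gata6, Gata4 and Sox17 were called lower with shRNA2 than with shRNA1, each on a call that some single libraries decide, and the laminin chain Lama1 was called higher. None of the 6 tested members was called with shRNA1, where 30.9% of all genes were. With shRNA2 1 was higher and 1 lower, beside 27.2% and 28.7% of all genes. Between the hairpins 1 was higher and 3 were lower, beside 16.9% and 18.7%. The summed level, 198 and 204 CPM with nt-shRNA, 178 to 200 CPM with shRNA1 and 234 to 242 CPM with shRNA2, was mostly Lama1.

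Lama1 encodes a chain of the basement membrane laminin made by primitive endoderm. It was at 159 and 152 CPM with nt-shRNA, at 136, 152 and 145 CPM with shRNA1 and at 199, 198 and 203 CPM with shRNA2. The shRNA2 libraries differed little among themselves and stood above all others, and the shRNA1 libraries were all below the controls, in replicate 2 by less than the rounding shown. The level was 1.28-fold higher with shRNA2 than with nt-shRNA (0.36, SE 0.06, adjusted p = 6.66e-05) and 1.39-fold higher than with shRNA1 (0.47, SE 0.06, adjusted p = 5.53e-06), and the value with shRNA1 was not called (-0.11, SE 0.06, adjusted p = 0.174).

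Gata6 and Gata4 are zinc finger factors that drive the primitive endoderm. Gata6 was at 4.72 and 5.02 CPM with nt-shRNA, at 3.61, 4.29 and 4.14 CPM with shRNA1 and at 3.21, 2.93 and 2.52 CPM with shRNA2. It was 1.69-fold lower with shRNA2 (-0.75, SE 0.17, adjusted p = 8.15e-04), and the groups did not overlap. With shRNA1 it was not called (-0.28, SE 0.16, adjusted p = 0.197). The difference between the hairpins (-0.47, SE 0.16, adjusted p = 0.0257) was lost without shRNA1 replicate 2 or 3 (0.0832 and 0.0665), without shRNA2 replicate 2 or 3 (0.0555 and 0.0890) and with DESeq2 (0.0585). Gata4 was at 13.7 and 13.5 CPM with nt-shRNA, at 13.0, 13.1 and 15.8 CPM with shRNA1 and at 12.7, 10.2 and 10.8 CPM with shRNA2. Only the comparison between the hairpins was called (-0.32, SE 0.11, adjusted p = 0.0293), although all shRNA2 libraries were also below both controls. That call was lost without shRNA1 replicate 3 (0.156), shRNA2 replicate 2 (0.117) or shRNA2 replicate 3 (0.0692). The value against nt-shRNA (-0.28, SE 0.12, adjusted p = 0.0605) was called without shRNA1 replicate 3 (0.0420) or shRNA2 replicate 1 (0.0277).

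Sox17, an HMG-box factor of endoderm, was at 1.80 and 1.29 CPM with nt-shRNA, at 1.80, 1.97 and 2.00 CPM with shRNA1 and at 0.930, 0.767 and 1.47 CPM with shRNA2. The hairpins did not overlap, while shRNA2 replicate 3 lay within the controls. Sox17 was 1.82-fold lower with shRNA2 than with shRNA1 (-0.87, SE 0.25, adjusted p = 0.0110), which was lost without shRNA2 replicate 2 (adjusted p = 0.0640). Against nt-shRNA it was not called with shRNA1 (0.32, SE 0.25, adjusted p = 0.348) or shRNA2 (-0.54, SE 0.28, adjusted p = 0.104), and the latter was called without shRNA2 replicate 3 (-0.85, adjusted p = 0.0193). Exons of Gm37587 on the opposite strand cover 16.8% of the Sox17 exons, and reads there were not assigned to either gene. Dab2, an endocytic adaptor, was at 17.7 to 24.6 CPM, and Pdgfra, a receptor tyrosine kinase of primitive endoderm, at 2.23 to 3.85 CPM over the libraries. Neither was called in any comparison, though without shRNA2 replicate 2 Pdgfra was called lower with shRNA2 against nt-shRNA (adjusted p = 0.0444) and against shRNA1 (0.0269).

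Among the other neural members, Sox1, the HMG-box factor of early neuroectoderm, and Pax6, the paired-box factor of neural progenitors and eye, were called in no comparison. Sox1 was at 4.88 to 6.79 CPM over the 8 libraries, with overlapping groups. Pax6 was at 1.46 and 1.53 CPM with nt-shRNA and between 0.722 and 1.26 CPM in the 6 shRNA libraries, all below the controls (-0.57, SE 0.26, adjusted p = 0.110 with shRNA1 and -0.42, SE 0.26, adjusted p = 0.180 with shRNA2). The neural group therefore split: the filament gene Nes fell, the tubulin gene Tubb3 rose and the 2 transcription factors did not pass the test. The sum of the 5 genes was 76.4 and 77.7 CPM with nt-shRNA, 62.1 to 72.0 CPM with shRNA1 and 55.7 to 65.4 CPM with shRNA2. Nes and Tubb3 made up most of it.

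In the neural crest group, 1 of 10 tested members was called with shRNA1 (Foxd3, higher, as were 13.8% of all genes). With shRNA2 4 were higher (Foxd3, Msx2, Snai1 and Snai2, beside 27.2% of all genes) and 2 lower (Twist1 and Msx1, beside 28.7%). Called members of this group thus went both ways, and the summed level was 89.3 and 95.9 CPM with nt-shRNA, 91.1 to 97.7 CPM with shRNA1 and 106 to 107 CPM with shRNA2. Most of this sum was Tfap2c, with means of 65.4, 63.9 and 62.9 CPM in the same order. Foxd3 had means of 6.55, 9.94 and 21.9 CPM.

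Snai1 and Snai2 encode zinc finger repressors of E-cadherin that act in epithelial-to-mesenchymal transition. Snai1 was at 2.92 and 2.19 CPM with nt-shRNA, at 3.25, 4.44 and 3.60 CPM with shRNA1 and at 4.56, 4.60 and 3.21 CPM with shRNA2. Every shRNA library was above both controls. The change was called with shRNA2 (0.69, SE 0.21, adjusted p = 0.00845), though not without nt-shRNA replicate 2 (0.49, adjusted p = 0.123). With shRNA1 it missed the threshold (0.55, SE 0.21, adjusted p = 0.0508) and passed it in 9 of 16 other settings, among them without shRNA2 replicate 2 or 3 (0.0424 and 0.0316). Snai2 was at 1.20 and 1.53 CPM with nt-shRNA, at 1.80, 1.88 and 1.35 CPM with shRNA1 and at 1.58, 2.48 and 2.43 CPM with shRNA2. It was 1.58-fold higher with shRNA2 (0.66, SE 0.25, adjusted p = 0.0325), a call lost without shRNA2 replicate 2 or 3 (0.0989 and 0.0885), without nt-shRNA replicate 1 (0.210) and with DESeq2 (0.0821). The value with shRNA1 was not called (0.27, SE 0.26, adjusted p = 0.451).

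Twist1, a bHLH factor of crest and mesenchyme, was at 3.71 and 4.25 CPM with nt-shRNA, at 3.16, 3.16 and 3.78 CPM with shRNA1 and at 2.14, 2.93 and 2.52 CPM with shRNA2. It was 1.57-fold lower with shRNA2 (-0.65, SE 0.18, adjusted p = 0.00544), and its 3 libraries lay below all others. The call was lost without nt-shRNA replicate 2 (-0.55, adjusted p = 0.0644), and a difference from shRNA1 (adjusted p = 0.0690) was called without shRNA2 replicate 2 (0.0474).

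Msx1 and Msx2 are homeobox paralogs downstream of BMP signalling, and with shRNA2 they moved in opposite directions. Msx1 was at 2.02 and 1.29 CPM with nt-shRNA, at 1.31, 1.58 and 1.71 CPM with shRNA1 and at 0.837, 0.631 and 1.42 CPM with shRNA2. One shRNA2 library lay within the controls. Its lower level with shRNA2 (-0.77, SE 0.31, adjusted p = 0.0377) was lost without shRNA2 replicate 1 or 2 (0.110 and 0.153), without nt-shRNA replicate 1 (0.389) and in 3 other settings. A difference between the hairpins (-0.68, SE 0.29, adjusted p = 0.0748) was called without shRNA2 replicate 3 (0.0101). Msx2 was at 0.412 and 0.244 CPM with nt-shRNA, at 0.631, 0.691 and 0.535 CPM with shRNA1 and at 1.44, 1.31 and 0.780 CPM with shRNA2. The 3 groups did not overlap, on 7 to 31 counts per library. Msx2 was 3.57-fold higher with shRNA2 (1.84, SE 0.38, adjusted p = 3.93e-04). The value with shRNA1 was not called (0.90, SE 0.42, adjusted p = 0.110). The difference between the hairpins (0.94, SE 0.30, adjusted p = 0.0220) was lost without shRNA1 replicate 1 or 3 (0.0505 and 0.0863), without shRNA2 replicate 1 or 2 (0.104 and 0.0754) and with DESeq2 (0.0857).

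The AP-2 factors Tfap2a and Tfap2c, the paired-box factor Pax3 and the HMG-box factor Sox10 were called in no comparison. Tfap2c, which is also expressed in pluripotent and germ cells, was at 57.9 to 68.4 CPM over all libraries, with a log2 fold change of -0.03 (SE 0.07) with shRNA1 and -0.06 (SE 0.07) with shRNA2. Tfap2a was at 7.40 to 10.1 CPM, Pax3 at 0.605 to 1.04 CPM and Sox10 at 0.337 to 0.713 CPM. The standard errors of Pax3 and Sox10, between 0.28 and 0.39 in the 3 comparisons, leave room for changes of the size called for other genes here.

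Among the trophectoderm members, Krt18, Gata2, Krt8 and Hand1 were called lower with shRNA2, while the estimates for Elf5 were above 0 with shRNA1 (1.00, SE 0.50, adjusted p = 0.139) and shRNA2 (0.75, SE 0.53, adjusted p = 0.237) and were not called. Of 6 tested members, 2 were called lower with shRNA1 (17.1% of all genes were), 4 with shRNA2 (28.7% of all genes) and 4 with shRNA2 against shRNA1 (18.7% of all genes), and none was called higher. The summed level was 146 and 155 CPM with nt-shRNA, 103 to 126 CPM with shRNA1 and 82.2 to 91.5 CPM with shRNA2, without overlap. Whether this group differs from the other lineages was not tested, and the median log2 fold change of its tested members was -0.31 with shRNA1 and -0.80 with shRNA2. The sum was mostly the keratin pair.

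Krt8, the type II partner of Krt18, was at 62.1 and 66.9 CPM with nt-shRNA, at 53.4, 65.2 and 60.0 CPM with shRNA1 and at 53.3, 49.4 and 48.1 CPM with shRNA2. It was 1.28-fold lower with shRNA2 (-0.36, SE 0.08, adjusted p = 8.89e-04) and not called with shRNA1 (-0.12, SE 0.08, adjusted p = 0.289). Its difference between the hairpins (-0.24, SE 0.07, adjusted p = 0.0148) was lost without shRNA1 replicate 2 (0.108). The values of Krt18 given above were further from 0 in each comparison, and the difference between the pair was not tested. The 2 genes lie next to each other on chromosome 15 of GRCm38, Krt8 from 101996698 to 102004482 and Krt18 from 102028180 to 102032027. Reads that align to several places were left out of the counts, so levels of keratins with pseudogene copies are uncertain.

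Hand1, a bHLH factor of trophoblast giant cells and heart, was at 2.51 and 1.46 CPM with nt-shRNA, at 0.947, 1.53 and 1.96 CPM with shRNA1 and at 0.605, 0.496 and 0.826 CPM with shRNA2. The shRNA2 libraries lay below all others, while shRNA1 overlapped the controls. Hand1 was 3.06-fold lower with shRNA2 than with nt-shRNA (-1.62, SE 0.34, adjusted p = 4.47e-04), the lowest value among the members in this fit, and 2.33-fold lower than with shRNA1 (-1.22, SE 0.33, adjusted p = 0.00736). The latter was lost without shRNA1 replicate 3 (-0.93, adjusted p = 0.0651). With shRNA1 it was not called (-0.39, SE 0.29, adjusted p = 0.320). Gata3, the zinc finger factor that acts with Cdx2 in trophectoderm, was at 1.26 to 2.13 CPM, and Elf5, an ETS factor of trophoblast stem cells, at 0.150 to 0.767 CPM over the libraries. Neither was called in any comparison, and the 4 to 17 counts of Elf5 give it the largest standard error of the members against nt-shRNA (0.50 and 0.53).

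A wider list of 18 further genes per lineage, none of them a member, was read in the same fit. Of these 90 genes, 62 were tested. With shRNA1 10 were called higher and 11 lower (33.9%, beside 30.9% of all genes), and with shRNA2 18 higher and 19 lower (59.7%, beside 55.9%). The differences between these shares were not tested.

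Among 13 tested streak and mesoderm genes, 5 were higher and 5 lower with shRNA2, where 27.2% of all genes were higher and 28.7% lower. The lower genes were led by Lefty2 and Lefty1, secreted antagonists of Nodal signalling. Lefty2 was at 44.5 and 78.3 CPM with nt-shRNA, at 25.6, 15.0 and 21.8 CPM with shRNA1 and at 2.56, 3.34 and 7.85 CPM with shRNA2. Lefty1 was at 8.55 and 19.7 CPM, at 4.28, 2.62 and 5.45 CPM and at 0.930, 0.812 and 1.24 CPM in the same order. Neither gene overlapped between groups, and the log2 fold changes with shRNA2 were -3.74 (SE 0.28, adjusted p = 2.77e-09) and -3.83 (SE 0.33, adjusted p = 1.69e-08). The controls differed for both genes, and without nt-shRNA replicate 2 the value of Lefty1 was -3.10, or 8.59-fold lower in place of 14.2-fold. Without shRNA2 replicate 3, that of Lefty2 was -4.38, or 20.8-fold lower in place of 13.4-fold. Wnt3, a ligand that induces the streak, was the furthest in the other direction (2.05, SE 0.38, adjusted p = 1.65e-04), at 0.262 and 0.453 CPM with nt-shRNA and 1.63, 1.89 and 1.01 CPM with shRNA2.

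Of 13 tested endoderm genes, 5 were lower and none higher with shRNA2, beside 28.7% and 27.2% of all genes, and 2 were lower with shRNA1, beside 17.1%. Of the latter, Col4a2 (-0.30, adjusted p = 0.0418), lost its call without shRNA1 replicate 1 or 2 (adjusted p = 0.209 and 0.0913), shRNA2 replicate 1 (0.0578) or nt-shRNA replicate 2 (0.399), while the other, Sparc, kept its call without any single library. The basement membrane genes Sparc (-0.75, SE 0.06, adjusted p = 1.25e-08) and Col4a2 (-1.06, SE 0.11, adjusted p = 1.74e-07) had the smallest adjusted p, opposite in direction to the member Lama1. Sparc was at 376 and 364 CPM with nt-shRNA and at 232, 210 and 220 CPM with shRNA2. Of 10 tested neural genes, 2 were higher and 1 lower with shRNA2, against the same shares of all genes. Neurod1, a bHLH factor of neuronal differentiation, was at 0.262 and 0.0697 CPM with nt-shRNA, on 7 and 2 counts, at 2.07, 1.83 and 1.75 CPM with shRNA1 and at 7.12, 12.5 and 6.61 CPM with shRNA2. Its log2 fold change was 3.49 with shRNA1 (SE 0.50, adjusted p = 4.09e-05) and 5.71 with shRNA2 (SE 0.41, adjusted p = 1.54e-09), and it rests on a control level near the floor of 3 counts. With shRNA2 it was 6.87 without nt-shRNA replicate 1 and 5.03 without replicate 2, and with shRNA1 4.65 and 2.81. Dll1, a Notch ligand, was lower with both hairpins (-2.12, SE 0.34, adjusted p = 1.08e-04 and -1.72, SE 0.33, adjusted p = 1.82e-04).

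Of 10 tested neural crest genes of the wider list, 6 were higher and none lower with shRNA2, beside 27.2% and 28.7% of all genes. The zinc finger repressor Zeb1 was at 14.4 and 15.5 CPM with nt-shRNA and at 22.3, 25.1 and 23.2 CPM with shRNA2 (0.65, SE 0.09, adjusted p = 9.22e-06). The cadherin gene Cdh11 was at 0.225 and 0.314 CPM and at 1.72, 0.722 and 1.10 CPM (2.10, SE 0.43, adjusted p = 3.74e-04). Of 16 tested trophectoderm genes, 8 were lower and 5 higher with shRNA2, against the same shares. The lower ones were led by the keratins Krt7, at 27.5 and 31.0 CPM with nt-shRNA and 4.88, 3.74 and 6.01 CPM with shRNA2 (-2.59, SE 0.15, adjusted p = 2.10e-10), and Krt19, at 60.6 and 67.8 CPM and 15.3, 12.4 and 10.1 CPM (-2.35, SE 0.16, adjusted p = 8.10e-10). Both were also lower with shRNA1 (-0.63, adjusted p = 0.00156 and -0.97, adjusted p = 6.09e-05). The homeobox gene Dlx3 was the furthest higher (1.27, SE 0.33, adjusted p = 0.00330).

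**Figure D4:**
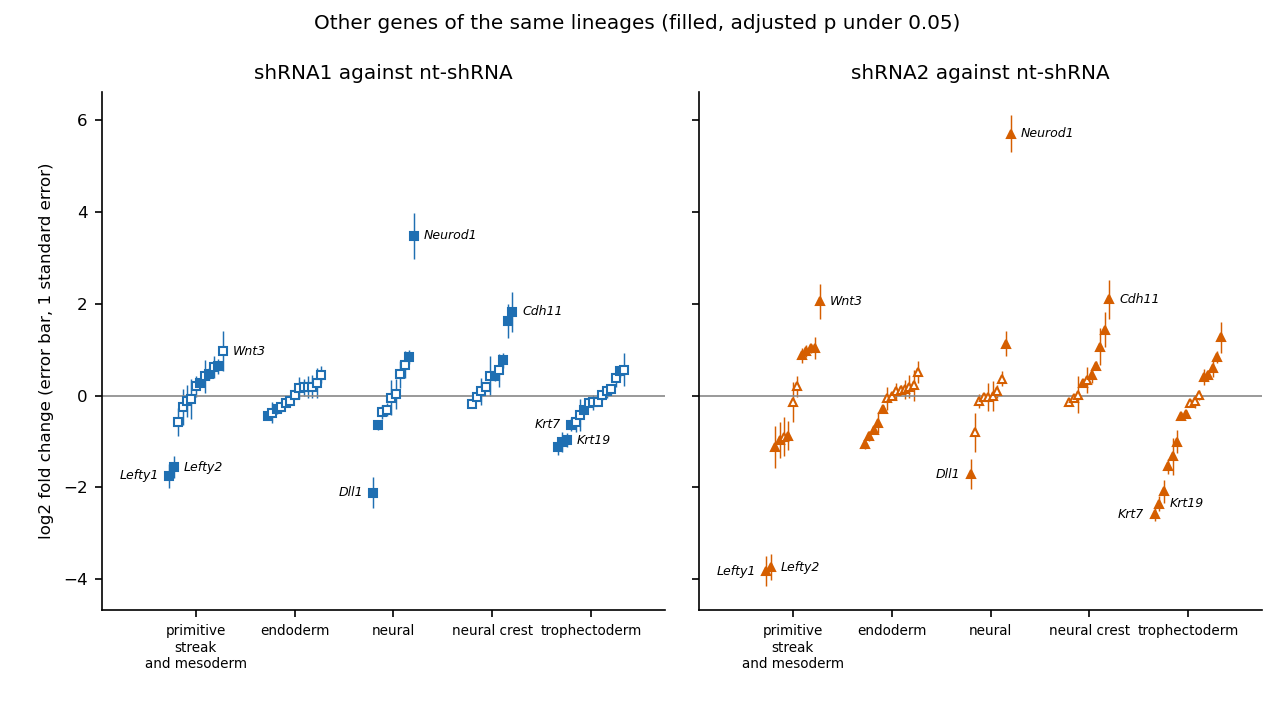
Log2 fold change against nt-shRNA, with 1 standard error, of the 62 tested genes of the wider lists, ordered by value within each lineage, for shRNA1 on the left and shRNA2 on the right. Filled symbols have an adjusted p under 0.05. Lefty1 and Lefty2 are lowest with shRNA2 and Neurod1 is highest.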

How the data were processed

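Gene expression was measured by poly(A) RNA-seq in 8 libraries of R1 mESCs. The authors aligned paired reads with STAR to GRCm38 (mm10), counted fragments on exons of GENCODE M24 with featureCounts 1.6.2, without strand, and deposited raw counts for 55385 genes. Multi-mapping fragments and those over more than 1 gene were not counted. The deposited gene length was used for CPM per kb. No per-sample column was left out. Names came from GENCODE M21 (55144 genes), and columns were matched to samples by title.

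The test was that of edgeR 4.0.16 under R 4.3.3 (filterByExpr with a minimum count of 10, TMM, glmQLFit and glmQLFTest), a coefficient per group over all 8 libraries and no block. The standard error was taken from the F statistic. The code was tested on simulated data. Libraries of a group differed by more than sampling noise (chi-square per gene of 3.12 or more). Intervals were not computed, and a floor of 3 counts covers counting error only. Whether replicates came from separate infections is not given, so p-values measure the spread between these samples.

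Members and lists were chosen with earlier results of these data known. Values in every library are given for members called in at least 1 comparison, and from each wider list the 2 genes with the smallest adjusted p with shRNA2 and the called gene furthest in the other direction are named. Alternatives were DESeq2 1.42.0 (the authors' tool), its size factors, library size alone, other filters, only the groups compared, the replicate block and each library left out. Promoters were read with Python 3.11.15, the values of the alternatives were summarised with pandas 2.3.3, and figures were drawn with matplotlib 3.10.9. Splicing was not analysed here.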

Additional observations from a re-analysis of the deposited data

Results flagged for a closer look

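The 13 members below differed between the hairpins by the direct edgeR test. Each value is the log2 fold change of shRNA2 minus shRNA1. Higher with shRNA2 were T (1.21), Foxd3 (1.14), Tubb3 (0.96), Msx2 (0.94) and Lama1 (0.47). Lower with shRNA2 were Hand1 (-1.22), Nes (-0.93), Sox17 (-0.87), Gata2 (-0.80), Krt18 (-0.63), Gata6 (-0.47), Gata4 (-0.32) and Krt8 (-0.24). Between the hairpins 35.6% of all genes tested were called, so such a difference is common in these libraries. T and Lama1 were the members with all shRNA1 libraries below and all shRNA2 libraries above both controls. Of these changes against nt-shRNA, T was called with shRNA1 alone and Lama1 with shRNA2 alone.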

How the results depend on the processing

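Over 16 alternatives, 1345 values of single members stayed on their side of the threshold, 59 fell short of it and 19 newly passed it. No called value changed sign, while 42 values of comparisons that were not called did, each with a reported log2 fold change of at most 0.39 in size. For Eftud2 and the genes named from the wider lists by the rule above, these numbers were 587, 15 and 10. Of their values that were not called, 1 changed sign. These genes were added after the data were seen. Nodal, Vim, Cd68 and the other markers of cell types were not among them. With library size alone, the members called lower with shRNA1 were 2, the median of all genes moved by 0.11 (log2) with shRNA1, 0.09 with shRNA2 and -0.02 between them, and the share of calls that were higher went from 44.7% to 70.5% with shRNA1 and from 48.7% to 58.9% with shRNA2. Without a filter, 34367 genes were tested and 15.6%, 28.7% and 17.3% of them called, since mostly silent genes were added. Leaving out 1 library each, the members called ranged from 1 to 3 higher and 2 to 4 lower with shRNA1, from 5 to 7 higher (8 with all libraries) and 7 to 9 lower with shRNA2, and from 4 to 5 higher and 5 to 8 lower between the hairpins. Without an nt-shRNA library, 1 control remained, assumed to vary like the other groups, and all genes called with shRNA1 fell from 5388 to 2948 (without replicate 1) or 3608 (without replicate 2). Depth limits Mixl1, T, Msx2, Elf5, Pax3 and Sox10, which had under 40 counts in every library. Msx1, Hand1, Sox17, Pax6, Snai2 and Gata3 had under 40 counts in some libraries.

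Whether same-numbered libraries shared an infection or a day is not given, and their deviations correlated only weakly, with r between -0.03 and 0.07. With the replicate block, the members called with shRNA1 were 4 higher and 3 lower, and all genes called went from 5388 to 6018, from 9758 to 10034 and from 6204 to 6518. Gsc with shRNA2 lost its call under it (0.41, adjusted p = 0.0654), as did T with shRNA1 (-0.70, adjusted p = 0.103), and Snai1 with shRNA1 (0.0220), Msx2 with shRNA1 (0.0457) and Gata4 with shRNA2 (0.0357) gained one.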

Other observations

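Nodal, whose antagonists Lefty1 and Lefty2 were the lowest of the wider list with shRNA2, was noted after its values were seen. It was at 42.2 and 50.6 CPM with nt-shRNA, at 58.9, 57.0 and 53.8 CPM with shRNA1 and at 92.8, 108 and 82.9 CPM with shRNA2, without overlap between the groups. Nodal was thus higher with shRNA1 (log2 fold change 0.28, SE 0.10, adjusted p = 0.0320) and shRNA2 (1.03, SE 0.10, adjusted p = 5.20e-08).

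Of the blood cell markers, Cd68 alone was measurable, at 28.4 and 26.3 CPM with nt-shRNA, 10.5 to 12.7 CPM with shRNA1 and 8.49 to 9.74 CPM with shRNA2, while Ptprc had no count in any library. Vim, a mesenchymal filament gene of the neural list, was lower with shRNA1 (-0.65, SE 0.09, adjusted p = 2.80e-05), not called with shRNA2 (-0.04, SE 0.09, adjusted p = 0.735) and higher with shRNA2 than with shRNA1 (0.61, SE 0.08, adjusted p = 2.41e-05), and was chosen after its values were seen.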
